A study of Mus musculus with 6 samples.

Results

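Expression of 10 neuropeptide genes was examined in dental pulp of WT and MMP13KO mice, to ask whether Cartpt rose alone or together with the peptide genes of sensory and autonomic nerves. The genes were Cartpt, Calca, Calcb, Tac1, Npy, Vip, Sst, Adcyap1, Gal and Penk, taken by gene symbol from a table of 53342 genes, in which all 10 had a row. Cartpt was selected on its rise between these same samples, so its values are a description and carry no test. The other 9 were listed for their known place in nerve fibres. All mice were C57BL/6 and 3 months old, and the labels name no treatment. The MMP13KO animals (Mmp13-/-) lack the collagenase in every tissue rather than in pulp alone, so a change in pulp cannot be assigned to pulp cells. Each genotype had 3 biological replicates, numbered 2, 4 and 5 for WT and 1, 2 and 6 for MMP13KO. A spin-column extraction is named in the sample labels, and incisors and TRIzol in the study's methods. The labels also name molars, but in the sample titles only for WT, and the MMP13KO titles name no tooth. A difference in tooth type between the genotypes, if there was one, cannot be told apart from genotype.

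Neuropeptides are cut from larger precursor proteins, packed into dense-core vesicles and released from nerve endings or endocrine cells, where they act on G protein-coupled receptors. Pulp is densely innervated by trigeminal sensory fibres that carry CGRP and substance P, and by sympathetic fibres that carry neuropeptide Y. The cell bodies of these fibres, where most of their mRNA is made, lie in ganglia outside the tooth. In bulk tissue, fewer cells of a type and less RNA per cell cannot be told apart.

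A cyclic AMP response element (CRE) is the site bound by CREB and is a familiar feature of neuropeptide promoters, so the promoter windows were searched for it. The RefSeq promoter table (GRCm38.p6) covers 250 bases before to 50 bases after each start and had windows for 8 of the 10 genes, all but Calcb and Penk. The full element, TGACGTCA, which reads the same on both strands, was found in 2 of the 8, Cartpt and Sst, and in 1.79% of all 32851 windows. Its core, TGACG, searched on both strands and contained in every full element, was found in 7 of the 8 and in 20.8% of all windows. Npy had neither. The windows of 30 bases below are shown because they let Cartpt be compared with the other peptide genes. They read 5′ to 3′ on the strand of the gene, with the match in capitals, and Tac1 has its cores on the opposite strand, where they appear as CGTCA.
Cartpt, chr13:99900777-99900806, minus strand: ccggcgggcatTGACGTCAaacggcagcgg
Sst, chr16:23890874-23890903, minus strand: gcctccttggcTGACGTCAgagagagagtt
Calca, chr7:114636405-114636434, minus strand: gaagcacagaggTGACGcaatctgtctggg
Tac1 (distal), chr6:7554852-7554881, plus strand: tccctaaaattgCGTCAtttcgaacacaat
Tac1 (proximal), chr6:7555006-7555035, plus strand: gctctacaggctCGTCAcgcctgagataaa
Vip, chr10:5639127-5639156, plus strand: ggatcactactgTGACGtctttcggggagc
Adcyap1, chr17:93198914-93198943, plus strand: ggactaggatgcTGACGtcttttactgata
The element of Cartpt began 112 bases upstream of the RefSeq start and that of Sst 48 bases upstream. RefSeq starts differ from the ends of the GENCODE gene spans given below. The windows of Cartpt and Sst and the proximal window of Tac1 lie inside those spans, and the distal window of Tac1 reaches into its span. The core of Gal lay 20 bases downstream of its start and is not shown. The TATA box letters TATAAA, searched on both strands, were found in Vip and Adcyap1 and in 13.6% of all windows. A match is a description of the letters and not evidence of binding.

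The libraries held 28442936 to 29980236 counts in WT and 21561420 to 26547121 in MMP13KO. Mmp13 itself checked the labels, at 957 ± 126 normalized counts in WT and 33.9 ± 27.5 in MMP13KO (SD, n = 3). Normalized counts here are estimated counts over the effective library size (TMM), expressed for a library of mean size. Genes that pulp is not known to use were read more often in MMP13KO. Odorant and vomeronasal receptor genes (1949 genes) took 28.3 to 49.05 CPM, a count relative to its library total, in WT, 362.6 and 415.2 in MMP13KO samples 1 and 2, and 1333 in sample 6, which stood apart. The counts that this receptor-gene rate gives for the exon length of a gene are used below as a yardstick for low values, and a ratio to it is a count divided by that yardstick in the same sample.

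Cartpt encodes the precursor of the CART peptides, which act in feeding circuits and in sensory and enteric neurons. It lies on chr13:99898489-99901091 of GRCm38, on the minus strand, and no other annotated gene overlaps it. Estimated counts were 4, 4 and 6 in WT samples 2, 4 and 5, and 1695, 2069.6 and 828 in MMP13KO samples 1, 2 and 6. All 3 MMP13KO samples were far above all 3 WT samples, and the lowest was sample 6. As normalized counts these were 3.73, 3.72 and 5.92 in WT and 1454, 1869 and 1296 in MMP13KO, or 4.46 ± 1.27 against 1539.8 ± 296 (SD, n = 3). The fitted log2 fold change was 8.40 (SE 0.27), which is 338-fold. This ranked 56th among 24534 genes that passed the filter on low counts. Per kilobase of exon, Cartpt passed 97.8% of those genes in MMP13KO and 10.5% of them in WT. Against the receptor-gene rate it stood at 823, 869.7 and 133 times in the 3 MMP13KO samples, and at 12.6, 17.6 and 34.5 times in WT, where the counts are few.

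**Figure D1:**
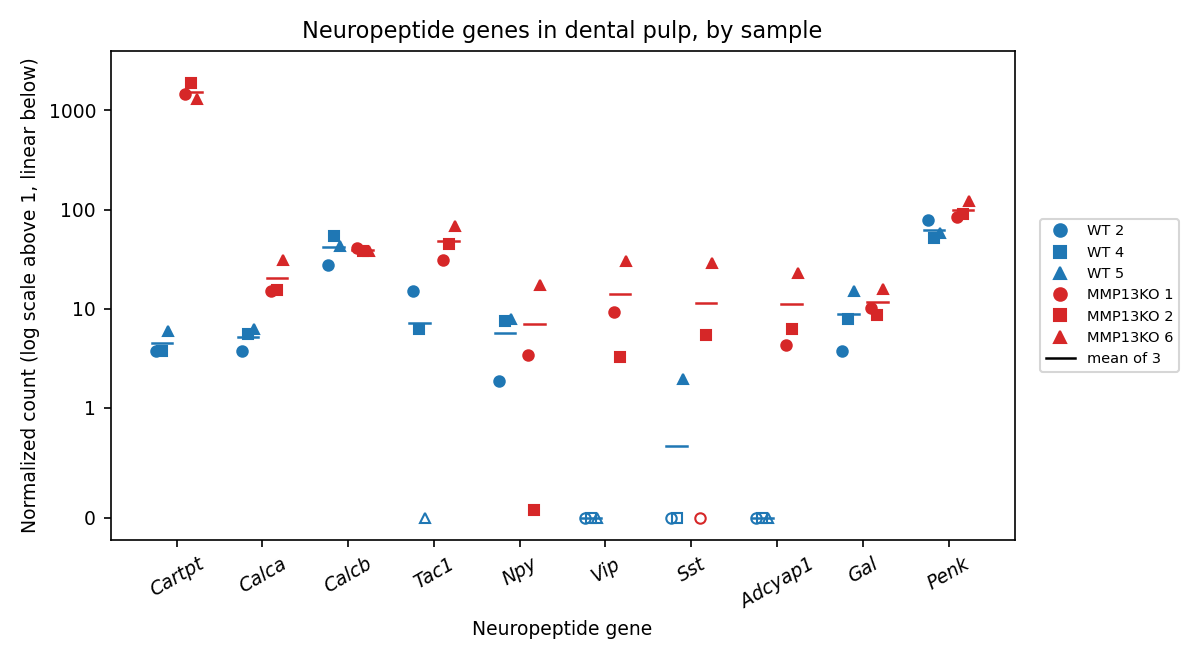
Normalized counts of the 10 neuropeptide genes (vertical axis, log scale above 1 and linear below) in each of 6 samples, with WT in blue, MMP13KO in red, a symbol per replicate, open symbols for a count of 0 and a line at each mean. Cartpt rises from 4.46 to 1539.8 on average, whereas no other gene of the 10 exceeds 122 in any sample.

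Calca and Calcb encode CGRP, the vasodilator peptide of sensory fibres, and Calca also gives calcitonin. The 2 genes are close paralogs, so reads may have been divided between them and their values are uncertain to that extent. Calca (chr7:114631478-114636357, minus strand) was read 3.98, 6 and 6.27 times in the WT samples, in estimated counts, and 17.7, 17.1 and 19.9 times in the MMP13KO samples. The genotypes did not overlap, although no sample held more than 19.9 counts. Normalized counts were 5.16 ± 1.29 and 20.6 ± 9.2, a log2 fold change of 1.98 (SE 0.59) with an adjusted p of 0.0175 by edgeR's quasi-likelihood test over all genes tested. Calca passed the filter only through its MMP13KO counts, and every WT count was too low for it, so Calca had to differ to be tested. The call rested on few reads and was lost without any 1 of the WT samples, at adjusted p-values of 0.0682 to 0.091.

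Calcb (chr7:114718643-114723365, plus strand) was more abundant than Calca and overlapped between genotypes. The WT samples held 29.5, 58.1 and 43.3 estimated counts of it and the MMP13KO samples 47.2, 42.1 and 24.1. Normalized counts were 41.4 ± 13.3 and 38.8 ± 1.54, and the log2 fold change of -0.09 (SE 0.35, adjusted p = 0.846 in edgeR) changed sign under other scalings, being 0.03 on library totals without factors and 0.11 with upper-quartile factors.

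Tac1, the precursor of substance P and neurokinin A, lies on chr6:7554879-7565834, plus strand. WT samples 2, 4 and 5 held 16.3, 6.76 and 0 estimated counts, and MMP13KO samples 1, 2 and 6 held 36, 49.2 and 43.5. Every MMP13KO sample was above every WT sample, with a wide spread within WT. Tac1 rose from 7.16 ± 7.63 to 47.8 ± 18.9 normalized counts, a log2 fold change of 2.70 (SE 0.80) with an adjusted p of 0.0171 in edgeR. The size of the change depended on WT, being 3.71 without WT sample 2 and 2.05 without WT sample 5. The call was lost without WT sample 4 (2.59, adjusted p = 0.0646), with a correction for GC content (2.34, adjusted p = 0.0705) and in limma on the deposited log2 values (3.25, adjusted p = 0.0849). Tac1 too passed the filter only through its MMP13KO counts. In MMP13KO samples 1, 2 and 6, Calca stood at 6.5, 5.45 and 2.44 times the receptor-gene rate and Tac1 at 6.57, 7.77 and 2.64 times. In WT samples 2, 4 and 5, where that rate was lower and the counts few, Calca stood at 9.51, 20 and 27.3 times and Tac1 at 19.3, 11.2 and 0 times.

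Npy, the cotransmitter of sympathetic vasoconstrictor fibres, lies on chr6:49822710-49829507, plus strand. The WT samples held 2, 8 and 8 estimated counts and the MMP13KO samples 3.96, 0.0769 and 11.1. Its highest and its lowest sample were both MMP13KO, and it did not pass the filter. Vip, a vasodilator peptide of parasympathetic fibres (chr10:5639218-5647617, plus strand), had no count in any WT sample and 10.9, 3.64 and 19.1 in MMP13KO. Against a floor of 3 counts per library, the MMP13KO mean of Vip was at least 4.98-fold higher, with normalized counts of 9.33, 3.28 and 30. Here and below such a bound is for the mean of the 3 samples, not for each sample. Vip did not pass the filter either, and its MMP13KO counts were 1.98, 0.574 and 1.16 times the receptor-gene rate.

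Adcyap1, which encodes PACAP, a relative of VIP found in sensory and parasympathetic neurons (chr17:93199017-93206537, plus strand), had the same form. It had no count in WT and estimated counts of 5.05, 6.94 and 14.5 in MMP13KO. Its MMP13KO mean was at least 3.9-fold higher against the floor, with normalized counts of 4.33, 6.27 and 22.7. Its counts were 0.829, 0.986 and 0.791 times the receptor-gene rate. Vip and Adcyap1 were therefore read in MMP13KO about as often as receptor genes of the same length in the same libraries. Without the filter, edgeR gave adjusted p-values of 0.000501 for Vip and 0.0021 for Adcyap1.

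Sst, the inhibitory peptide somatostatin (chr16:23889573-23890958, minus strand), had 0, 0 and 2 counts in WT and 0, 5.95 and 18.3 in MMP13KO. MMP13KO sample 1 had none, so the genotypes overlapped. Sst did not pass the filter, and the adjusted p was 0.0311 in edgeR without the filter and 0.0854 in DESeq2. Gal, the precursor of galanin, which is induced in injured sensory neurons (chr19:3409915-3414544, minus strand), had 4.01, 8.46 and 15.3 counts in WT and 11.9, 9.57 and 10.2 in MMP13KO. WT held both the lowest and the highest count, and the log2 fold change was 0.40 (SE 0.64, adjusted p = 0.626 in edgeR).

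Penk, the precursor of the enkephalin opioids (chr4:4133531-4138819, minus strand), was the most abundant of the 10 genes in WT per kilobase of exon. The WT samples held 83.4, 55.8 and 58.7 estimated counts of Penk and the MMP13KO samples 98.1, 99.4 and 77.8. In normalized counts every MMP13KO sample was above every WT sample, at 98.6 ± 20.3 against 62.5 ± 13.5. The log2 fold change was 0.64 (SE 0.26) and the adjusted p 0.0632 in edgeR. A correction for GC content gave 1.17 with an adjusted p of 0.0182. Penk overlaps A830012C17Rik on the opposite strand, and since no source used here states that counting used strand, reads of the 2 genes cannot be told apart.

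Of the 9 genes other than Cartpt, 5 were tested (Calca, Calcb, Tac1, Gal and Penk), of which Calca and Tac1 were called at an adjusted p under 0.05 and over 2-fold. Calca, Tac1 and Gal would not have been tested on their WT counts alone, so this count says nothing of the 9 as a group. By the same rule 20.4% of all 24534 tested genes were higher in MMP13KO and 9.68% were lower. No tested neuropeptide gene was lower by edgeR, with 0 also at an unadjusted p under 0.05, by DESeq2 and by limma. Npy, Vip, Sst and Adcyap1 were not tested. Every MMP13KO sample was above every WT sample for 5 of the 9 (Calca, Tac1, Vip, Adcyap1 and Penk), against 31.8% of all tested genes, and Vip and Adcyap1 are not among the tested genes. Without MMP13KO sample 6 the called genes were again Calca and Tac1.

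The fold change of Cartpt was 338, and those of Calca and Tac1 were 3.93 and 6.5. At an adjusted p under 0.01 or in a test against a 2-fold change neither Calca nor Tac1 was called in edgeR, and with at least 10 counts required in every sample neither was tested. The 9 others together had 129.8, 133 and 132 normalized counts in WT and 198, 211 and 373 in MMP13KO. Cartpt supplied 3.28% of the normalized counts of the 10 genes in WT and 85.5% in MMP13KO. Among the MMP13KO samples, 8 of the 9 others were highest in normalized counts in sample 6, the library with the highest receptor-gene rate, whereas Cartpt was lowest there. In estimated counts Tac1, Gal and Penk were not highest in sample 6, which had the fewest counts in all. With the receptor-gene rate subtracted from every count Calca (log2 fold change 1.67, adjusted p = 0.0258) and Tac1 (2.59, adjusted p = 0.0219) were called in edgeR. Both again passed the filter only through their MMP13KO counts, so these calls add no separate evidence.

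The order of the genes changed with genotype. In WT the normalized counts per kilobase of exon were highest for Penk (38.3 ± 8.29) and Calcb (32.8 ± 10.5), whose ranges overlapped. Gal, Npy, Cartpt, Calca, Tac1, Sst, Vip and Adcyap1 followed, and in that series each range overlapped the next. In MMP13KO, Cartpt led with 1206 ± 232 per kilobase, and Penk (60.3 ± 12.4) and Calcb (30.7 ± 1.22) came after it without overlap between Cartpt and Penk or between Penk and Calcb. From Calcb down to Calca the ranges of neighbours overlapped, and Vip (4.17 ± 4.11) and Adcyap1 (2.94 ± 2.68) were lowest.

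**Figure D2:**
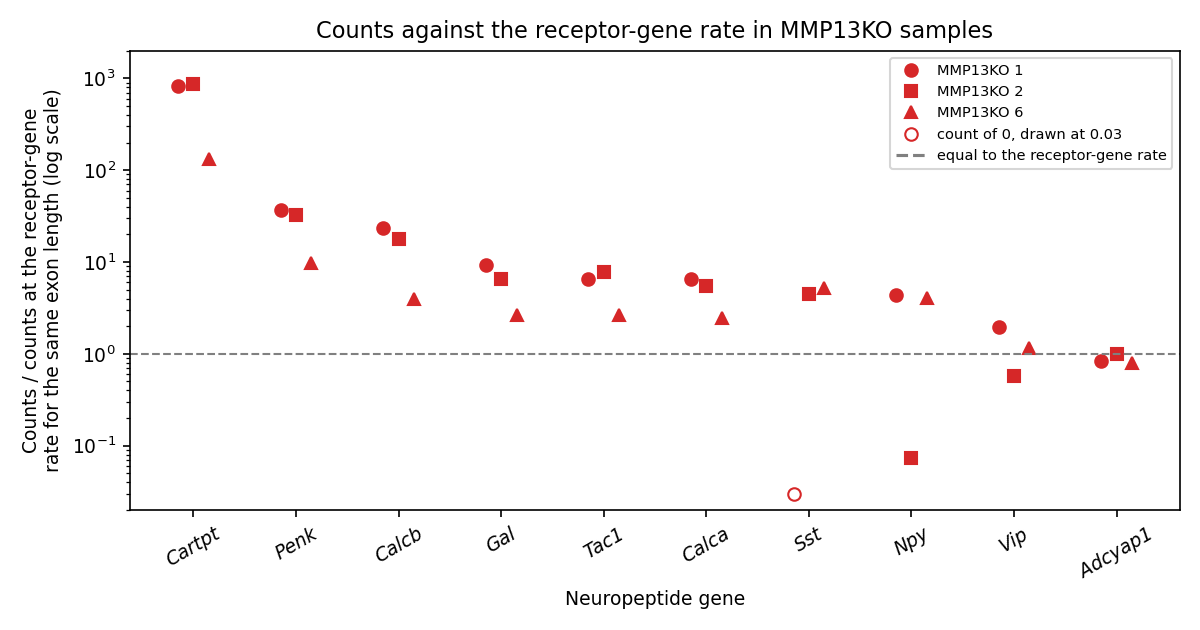
Counts of each neuropeptide gene in the 3 MMP13KO samples divided by the counts that odorant and vomeronasal receptor genes of the same exon length would have in that sample (log scale). Cartpt stands at 133 to 869.7 times that rate and Penk at 9.8 to 37.2 times, whereas Vip and Adcyap1 lie around the dashed line at 1.

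Other precursors of neuropeptides and peptide hormones were examined as a list of 50, of which 23 were tested. Nts, Pmch, Pdyn and Nmb rose, which is 17.4% and near the 20.4% of all tested genes, and the median log2 fold change of the tested genes was 0.25, against 0.10 over all genes. None was called lower in the main edgeR fit or DESeq2, 1 was in limma and 3 were in the study's own procedure. In edgeR 1 was called lower with no filter, with the receptor-gene rate subtracted, and without MMP13KO sample 1 or 6. At an unadjusted p under 0.05, 4 (Ucn, Pthlh, Ucn2 and Ghrl) were lower. Nts, the precursor of neurotensin, had 72.2, 52.3 and 62.2 normalized counts in WT and 523, 488 and 483 in MMP13KO. The 3 samples of each genotype were close together and far from the other genotype, with a log2 fold change of 3.00 (SE 0.18, and 2.18 with the GC correction), and Nts stood at 303, 232 and 50.8 times the receptor-gene rate.

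Pmch, the precursor of melanin-concentrating hormone, had 8.01, 0.465 and 9.79 normalized counts in WT and 80.9, 83.3 and 35.1 in MMP13KO, a log2 fold change of 3.44 (SE 0.73). Like Cartpt, Pmch was lowest in sample 6 among the MMP13KO samples. It lies within the span of Parpbp on the opposite strand. Nmb, the precursor of neuromedin B, rose from 23.8 ± 5.29 to 53.3 ± 15.6 (log2 fold change 1.16, and 1.83 with the GC correction), shares its strand and part of its position with Sec11a, and was not called under 7 of the alternatives, DESeq2 among them. Pdyn, the dynorphin precursor, had no WT count and was at least 9.22-fold higher in MMP13KO, at 1.93 to 4.65 times the receptor-gene rate. It passed the filter only through its MMP13KO counts.

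Receptors for the peptides of the genes other than Cartpt formed a list of 28, and no receptor for the CART peptides was included. Of these 22 were tested and 8 rose (36.4%, against 20.4% of all tested genes), with a median log2 fold change of 0.68. Without MMP13KO sample 6, 7 rose. With the receptor-gene rate subtracted 19 were tested and 4 rose (Calcrl, Calcr, Npy6r and Oprm1), while Oprk1 and Sstr5 no longer had the counts to be tested. None was lower in the main edgeR fit, DESeq2 or limma, and 1 was in edgeR without MMP13KO sample 2. At an unadjusted p under 0.05, 3 (Ramp1, Ramp2 and Adcyap1r1) were lower. Calcrl, the receptor subunit for CGRP, had 274, 224 and 219 normalized counts in WT and 534, 656 and 459 in MMP13KO. These did not overlap, and the log2 fold change was 1.21 (SE 0.18, adjusted p = 0.00049 in edgeR), but with the correction for GC content it was 0.13 and did not pass (adjusted p = 0.453). Its partner Ramp1, which makes Calcrl a CGRP receptor, went from 937 ± 67.3 to 512 ± 92.7, a log2 fold change of -0.87 (SE 0.16, adjusted p = 0.00179), which is under the 2-fold limit.

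Calcr, the calcitonin receptor, rose from 5.38 ± 3.28 to 59.8 ± 12.7 and Npy1r, a neuropeptide Y receptor, from 17.7 ± 1.77 to 39.9 ± 13.9. The call of Npy1r was lost without MMP13KO sample 6 (adjusted p = 0.0621 in edgeR) and under 10 other settings. The opioid receptors Oprm1 and Oprk1 and the somatostatin receptor Sstr5 had 0 to 4 estimated counts in each WT sample, and in MMP13KO they were at 0.893 to 6.17 times the receptor-gene rate. They passed the filter only through their MMP13KO counts, so the share of receptors that rose was partly set by the filter. Tacr1, the substance P receptor, was at 40.4 ± 19.4 and 78.1 ± 39.8 with overlap (adjusted p = 0.115). Vipr1 (adjusted p = 0.732), Sstr2 (0.0767) and Oprd1 (0.708) did not pass in edgeR, Adcyap1r1 had a log2 fold change of -0.54 (SE 0.19, adjusted p = 0.0342) under the 2-fold limit and of -0.03 with the GC correction, and Galr1 was not tested.

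Genes that process, store or break down peptides formed a list of 22, of which 19 were tested, 8 rose (42.1%, against 20.4% of all tested genes) and 1 fell (5.26%, against 9.68%), with a median log2 fold change of 0.99. With the receptor-gene rate subtracted 16 were tested and 4 rose. The 3 tested genes of largest fold change were granule proteins, Chga (1.96 ± 2.02 to 23.3 ± 21.6 normalized counts), Chgb (3.8 ± 0.127 to 24.3 ± 24.1) and Vgf (4.38 ± 2.2 to 26.5 ± 5.62). Each was 1.37 to 5.67 times the receptor-gene rate in MMP13KO, and none of the 3 was tested after that rate was subtracted. Chga and Chgb passed the filter only through their MMP13KO counts, so the share of the list that rose was partly set by the filter. For Chga, Chgb and Vgf the change also depended on the setting. Their log2 fold changes of 3.49, 2.58 and 2.54 were 2.47, 1.45 and 2.42 without MMP13KO sample 6 and 4.47, 3.27 and 3.70 with the GC correction. The call of Chgb was lost under 6 of the alternatives and that of Chga under 4. Scg2, a granule protein that did not pass the filter and was chosen after its values were seen, went from 0.221 ± 0.383 to 26.9 ± 27.3 normalized counts, at 1.99 to 4 times the rate. The convertase Pcsk2 rose with a log2 fold change of 1.61 (SE 0.60, adjusted p = 0.0456) but not without MMP13KO sample 6 (0.75, adjusted p = 0.147) or with the receptor-gene rate subtracted (-0.05), and its relative Pcsk1 was at 1.07 (SE 0.41, adjusted p = 0.0524).

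Some of the most abundant genes of the list had lower values in MMP13KO. Ece1, an endothelin-converting enzyme that also cleaves neuropeptides, fell from 8186 ± 1041 to 3144 ± 282, a log2 fold change of -1.38 (SE 0.17) that was -0.69 with the GC correction, under the 2-fold limit. Cpe, the carboxypeptidase that trims cut precursors, was at -0.62 (SE 0.19, adjusted p = 0.0178) and Pam, which amidates peptide ends, at -0.48 (SE 0.18, adjusted p = 0.0437), both under the 2-fold limit. Scg5 was not tested. Mme, or neprilysin, a membrane peptidase that degrades substance P and enkephalins, was chosen after its values were seen. It rose from 797 ± 137 to 3048 ± 617, a log2 fold change of 1.94 (SE 0.20, and 0.89 with the GC correction), at 27 to 201 times the receptor-gene rate.

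Markers of the cells that could carry these peptides were read beside them. Of 24 tested sensory neuron markers 13 rose (54.2%, against 20.4% of all tested genes) and 1 fell (4.17%, against 9.68%), with a median log2 fold change of 1.98, and 12 rose without MMP13KO sample 6. Their summed level overlapped between genotypes, at 81.5 to 111 CPM in WT and 102 to 114 in MMP13KO. Some of the 13 that rose, Scn9a, Scn10a and Elavl4 among them, passed the filter only through their MMP13KO counts. The share that rose was therefore partly set by the filter. The 13 had lowest ratios to the receptor-gene rate between 1.01 and 3.17. With that rate subtracted 17 were tested, 5 rose (Scn11a, Trpa1, Trpm8, Nefm and Nefh) and the median was 0.12. Scn10a, a nociceptor sodium channel, had no WT count and 22, 33 and 80 in MMP13KO, at 1.71, 2.22 and 2.07 times the rate, and was at least 20.4-fold higher. Scn9a, also a nociceptor channel, had 0, 0 and 1 counts in WT and 20.9, 24.9 and 76 in MMP13KO, at 1.01, 1.05 and 1.23 times the rate. Elavl4 had no WT count and was at least 11.2-fold higher against the floor.

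The neuronal genes Snap25, Syt1 and Elavl3, named after their values were seen, were among the 13, from 1.12 ± 0.99, 2.52 ± 1.05 and 5.06 ± 4.53 normalized counts in WT to 32 ± 33, 43.6 ± 42.7 and 52.5 ± 57.8 in MMP13KO. They stood at 1.11 to 2.28 times the rate in MMP13KO. Without MMP13KO sample 6 the log2 fold change of Snap25 went from 4.49 to 3.23 and that of Elavl3 from 3.32 to 1.92, and Elavl3 did not pass (adjusted p = 0.0675 in edgeR). Tubb3, Prph and Trpv1, also expressed by sensory neurons, did not pass. Tubb3 was at 401 ± 62.6 and 352 ± 34.2 normalized counts (log2 fold change -0.18, adjusted p = 0.373, and 0.72 with the GC correction), Prph at 17.3 ± 7.39 and 22.2 ± 5.04 (adjusted p = 0.576), and Trpv1 at 16.4 ± 1.72 and 36.8 ± 22.5 (adjusted p = 0.0821 in edgeR). Avil fell, from 344 ± 43.2 to 132 ± 15.8, a log2 fold change of -1.38 that was -0.69 with the GC correction. Of 14 tested autonomic markers 7 rose (50%, against 20.4% of all tested genes) and 1 fell (7.14%, against 9.68%), with a median of 1.71. With the rate subtracted 10 autonomic markers were tested and 2 rose (Slc18a2 and Chrna3). Their summed level was 90.2 to 103 CPM in WT and 54.7 to 68.3 in MMP13KO, but Hand2 alone made up 67.7 to 71.7% of it in WT, and without Hand2 it was higher in MMP13KO (39 to 41.4 CPM) than in WT (29.1 to 30.9). Th, which makes catecholamines in sympathetic fibres, was at 50.5 ± 8.77 and 29.4 ± 18.1 (adjusted p = 0.142), and Chat at 12.5 ± 4.24 and 44.2 ± 42.2 (adjusted p = 0.0536). Slc18a3 did not pass (adjusted p = 0.507) and Dbh was not tested. Slc5a7 had no WT count and 11.9, 11.9 and 67.8 normalized counts in MMP13KO samples 1, 2 and 6. Its MMP13KO mean was at least 10.7-fold higher, and its counts were 1.25 to 1.58 times the rate. Slc5a7 passed the filter only through its MMP13KO counts, so the share of autonomic markers that rose was partly set by the filter. Ddc had a log2 fold change of 3.47 (SE 0.80) that was 2.40 without MMP13KO sample 6, and Hand2 fell (-1.78, SE 0.14, and -0.77 with the GC correction).

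Of 16 Schwann cell and myelin markers 2 rose (12.5%) and 1 fell (6.25%), both under the shares of all tested genes, with a median of -0.20. Fabp7 (3.17, SE 0.82) and Cdh19 (2.54, SE 0.28, and 1.42 with the GC correction) rose and Prx fell (-1.42, SE 0.40, and -0.49 with the GC correction), while Mbp (adjusted p = 0.0791) did not pass and Sox10 was at -0.84 (SE 0.30, adjusted p = 0.0389) under the 2-fold limit and at 0.30 with the GC correction. Among the other cell types of the samples, blood cell markers were higher in 11 of 12 (91.7%, against 20.4% of all tested genes). Their summed level was 483 to 792 CPM in WT and 1364 to 4058 in MMP13KO. Skeletal muscle markers were lower in 6 of 8 (75%, against 9.68% of all tested genes), with summed levels of 93027 to 108039 CPM in WT and 20601 to 65441 in MMP13KO. Of 12 odontoblast markers 2 were higher (Dspp and Phex, 16.7%, near the 20.4% of all tested genes) and 3 were lower (Col1a1, Col1a2 and Nes, 25%, against 9.68%). Their sum was 53654 to 60947 CPM in WT and 14740.2 to 26022 in MMP13KO, of which Col1a1 and Col1a2 supplied 77% or more in every sample, and without these collagens the genotypes overlapped (2112 to 3653 and 2359.5 to 4836). Over the MMP13KO samples Cartpt was at 64.4, 78 and 38.4 CPM, and the sums of 6 of the 11 marker and pathway lists had the same order, that of blood among them (3889, 4058 and 1364). The part of these cell types in the values of Cartpt was not tested.

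**Figure D3:**
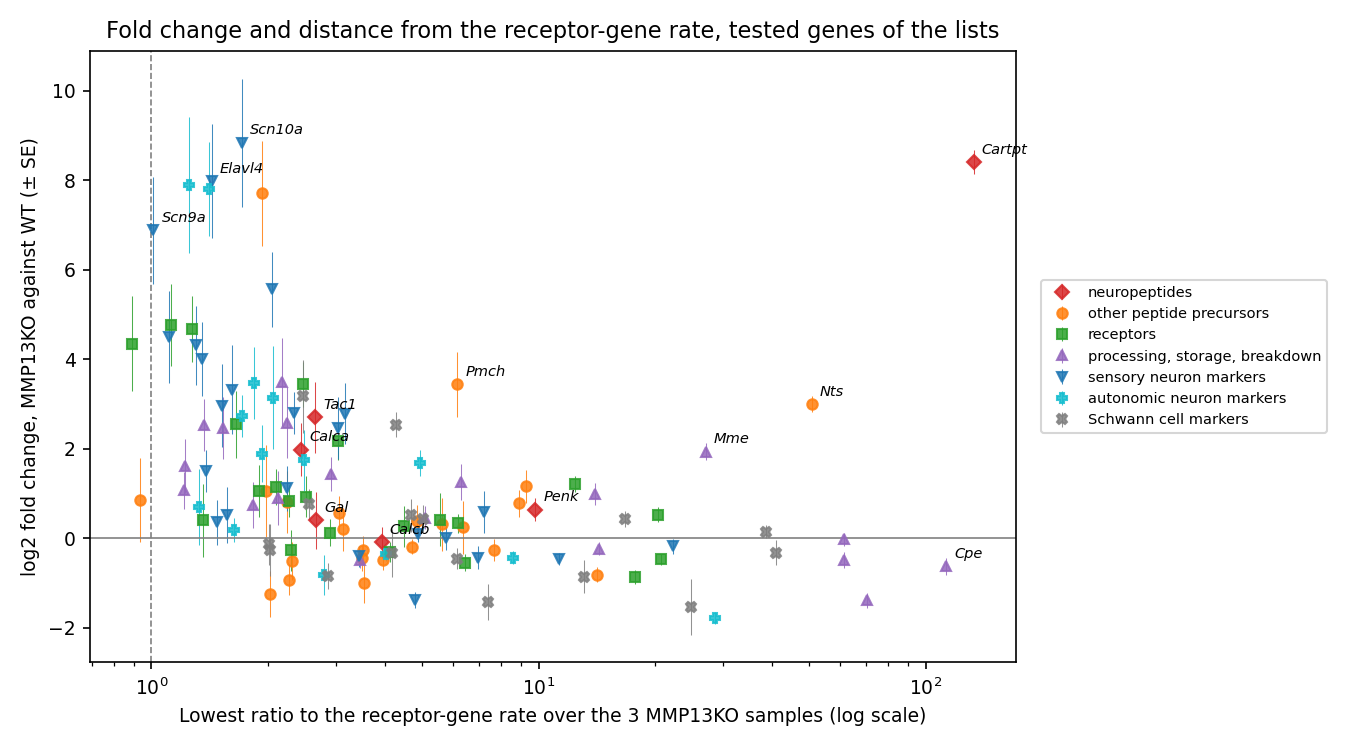
Log2 fold change with SE (vertical axis) of the tested genes of 7 lists against their lowest ratio to the receptor-gene rate over the 3 MMP13KO samples (horizontal axis, log scale), with a symbol and colour per list and a dashed line at the rate itself. Sensory markers with large changes such as Scn9a and Scn10a sit near the line at 1.01 and 1.71, whereas Cartpt (133), Nts (50.8) and Mme (27) sit far to the right.

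The genes closest to Cartpt in profile were found by Euclidean distance between log2 values (CPM plus 0.5) centred on the WT mean, over the 6 samples. The nearest 5 of the tested genes were Rps3a3 (distance 0.68), Gm25360 (1.04), Rpl34-ps1 (1.85), Rprl3 (2.32) and S100a9 (2.51). Rps3a3 and Rpl34-ps1 are annotated as processed pseudogenes of ribosomal protein genes, Gm25360 as a small nuclear RNA and Rprl3 as a ribozyme, while S100a9 encodes a neutrophil protein. None is a neuropeptide gene, but this distance depends largely on the size of the rise, for which Cartpt was selected. A gene with a much smaller rise could not be near, so the absence of other neuropeptide genes was set beforehand. Rps3a3, which shares chromosome 13 with Cartpt, went from 13.2 ± 3.06 to 2816 ± 370.5 normalized counts, and as a pseudogene copy it may share reads with its parent gene.

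Within 1 Mb of the start of Cartpt 53 genes are annotated, of which 33 were tested, 11 rose (33.3%, against 20.4% of all tested genes) and 1 fell (3.03%, against 9.68%). The nearest tested neighbours on either side did not pass. Mccc2, 50 kb away, was at 514 ± 44.9 and 373 ± 94.3 normalized counts (log2 fold change -0.46, SE 0.19, adjusted p = 0.0716), and Gm26559, at -381.9 kb on the other side, was at 22.8 ± 12.4 and 27.4 ± 16.8 (adjusted p = 0.759). The tested neighbours that rose lay on the side of Mccc2, but 4 genes on the other side that did not pass the filter (1700012J22Rik, AC154849.1, AC154849.2 and AC154849.3) were called higher without it. The Naip family encodes inflammasome receptors, and its members are near-identical copies among which reads may be divided. Naip2 (2.10, SE 0.23), Naip6 (2.59, SE 0.31) and Naip1 (2.77, SE 0.83) rose, as did Naip3 (3.75, SE 1.01, and 2.41 without MMP13KO sample 6), which is annotated as an unprocessed pseudogene, whereas Naip5 did not pass (0.79, adjusted p = 0.132). CT009518.1 (4.10, SE 0.97, and 3.18 without MMP13KO sample 6), Ak6 (1.12), Taf9 (1.43), Ccdc125 (1.18), Cenph (1.40) and the cyclin Ccnb1 (1.69) rose as well. Gm29502 had no WT count and was at least 7.6-fold higher, and 2310020H05Rik fell (-2.02, SE 0.65). Gm29502, CT009518.1, Naip1 and Naip3 passed the filter only through their MMP13KO counts, so the share of neighbours that rose was partly set by the filter. The GC correction ended the calls of Taf9, Cenph and 2310020H05Rik, and without MMP13KO sample 6 Naip1 did not pass (1.54, adjusted p = 0.0509 in edgeR).

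**Figure D4:**
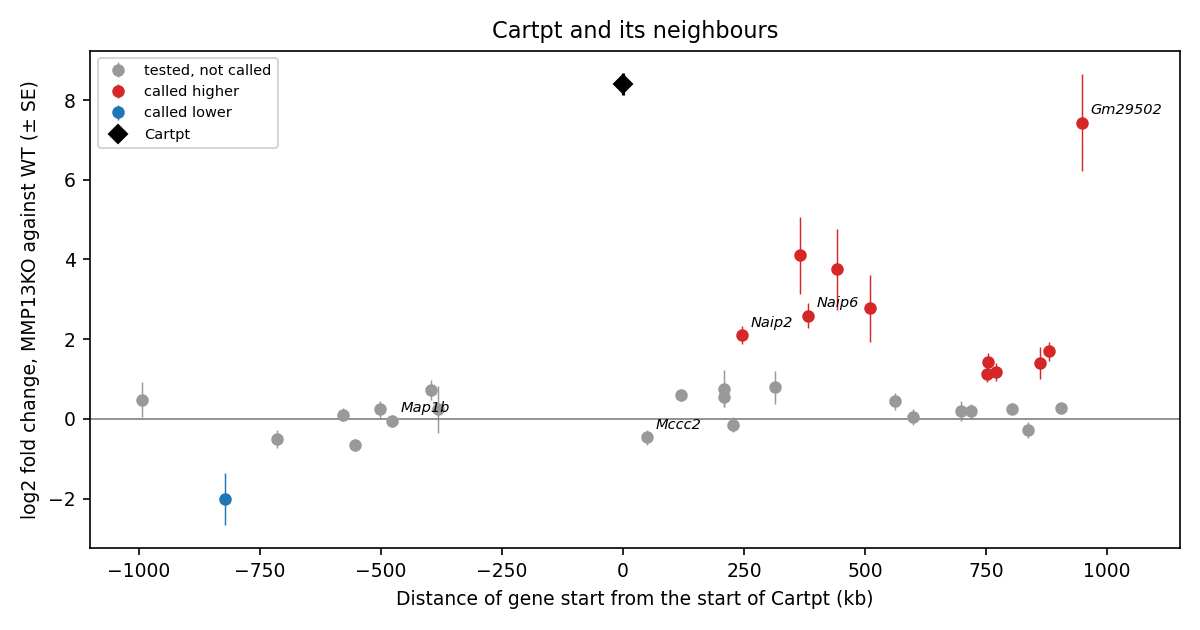
Log2 fold change with SE (vertical axis) of Cartpt and of the 33 tested genes within 1 Mb, against the distance of their start from that of Cartpt in kilobases (horizontal axis), with called genes in red or blue. Cartpt stands at 8.40 between Gm26559 and Mccc2, whose values are 0.24 and -0.46.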

How the data were processed

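Dental pulp mRNA of 3 WT and 3 MMP13KO mice was sequenced and grouped by the genotype in the labels. The authors made estimated counts per gene in Strand NGS from aligned reads (genome build mm10 per the labels) and deposited them with log2 values, normalized by DESeq size factors with a threshold of 1 and centred on each gene's median. The deposited log2 values were recomputed from the counts to within 2.35e-06. Aligner settings and annotation release are not given in the sources used here.

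The genes and lists were chosen with earlier results of these data known. Counts were rounded, and edgeR 4.0.16 in R 4.3.3 was the main test (quasi-likelihood, TMM factors, edgeR's filter on low counts, Benjamini-Hochberg over all tested genes), without covariates. A gene was called at an adjusted p under 0.05 and over 2-fold. The fits were also run on data simulated from the WT means, in which only well-counted genes were changed. Changes in genes of few counts and a raised receptor-gene rate were not part of it, so it does not bear on them. The study's own procedure, DESeq2 1.42.0 and limma 3.58.1 were alternatives, with other scalings, filters, thresholds, a GC correction, subtraction of the receptor-gene rate and each sample left out. Positions and exon lengths came from GENCODE M21, matched for 99.8% of genes. A gene at 3 counts, the floor, stood at 0.1 to 0.139 CPM. In each list, genes were named by a rule: the called genes of largest change, at most 4, whose genotypes did not overlap, and fixed defining genes. The 5 closest profiles, the nearest tested neighbours of Cartpt and its called neighbours were also named. Some genes that the rule names are not reported here.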

Additional observations from a re-analysis of the deposited data

How the results depend on the processing

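The labels name no pairing between WT and MMP13KO animals, so no paired analysis was made. The number of genes called, 7381, became 11879 with DESeq2, 4755 with the GC correction, 4666 with at least 10 counts in every sample, 14325 with no filter, 15407 with the study's procedure and 3047 with a test against a 2-fold change. The share of calls that were higher, 67.8%, became 81.4% with upper-quartile factors, 77.2% with total counts and 84.3% with the GC correction, and these 3 settings shifted the median over all genes by 0.21, 0.11 and 0.12 (log2). The 2 neuropeptide genes called beside Cartpt became 4 with DESeq2 (Calca, Tac1, Vip and Adcyap1), 4 with no filter (Tac1, Vip, Sst and Adcyap1) and 4 with the study's procedure. They became 0 at an adjusted p under 0.01, with at least 10 counts in every sample, where Calca and Tac1 were not tested, and with a test against a 2-fold change. Leaving out 1 sample gave 1 to 3, the lowest (Vip) without WT sample 4. The log2 fold change of Cartpt was 8.98 with the GC correction and 8.18 to 8.57 with 1 sample left out. That of Calcb turned positive with the GC correction (0.12), at least 10 counts in every sample (0.03), total counts (0.03) and upper-quartile factors (0.11), and ranged from -0.39 to 0.11 with 1 sample left out. Npy, 0.02 with no filter, was -0.34 in limma and in the study's procedure, and Gal ranged from -0.03 to 0.95 with 1 sample left out. The causes were not tested.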
